A study of Mus musculus with 8 samples.

Results

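The mitochondrial ribosome translates the few messages transcribed from mitochondrial DNA, all of them for subunits of the respiratory chain and ATP synthase. Its RNAs come from the mitochondrial genome, whereas every one of its proteins is encoded in the nucleus, made in the cytosol and imported. The kidney, with its densely packed tubular mitochondria, depends on this supply for the ATP that drives reabsorption. Some of these proteins have counterparts in bacterial ribosomes and others occur only in mitochondria, and inherited defects in several cause combined respiratory chain deficiency in people.

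The mitochondrial ribosomal protein genes were taken as the protein-coding rows of the deposited table whose symbol is Mrpl or Mrps followed by a digit. This gave 76 of 23386 genes, 47 with a large-subunit name (Mrpl) and 29 with a small-subunit name (Mrps). All 76 passed the filter on low values (a mean of at least 0.5 scaled FPKM), as did 14030 genes of the whole table. The rule used only symbol and gene type, but this set was chosen with earlier results of these data known. Of the 76, Mrps36 is now regarded as a component of the oxoglutarate dehydrogenase complex rather than of the ribosome, and Mrps30 and Mrps18a sit in the large subunit despite their names. Another 4 rows with such symbols were pseudogenes and were left out, with 15 to 124 reads each over all libraries.

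The libraries came from whole left kidneys of mice aged 49 weeks, 4 of wild-type (WT) and 4 of Ctrp1-/- genotype (KO), 1 library per animal. Both genotypes were littermates from crosses of heterozygotes, all labelled C57BL/6J, and the KO carries in every cell a deletion in the last exon of C1qtnf1, the gene of the secreted protein CTRP1. The targeted allele was made in 129S5/Sv embryonic stem cells and backcrossed, so DNA of the 129 strain linked to C1qtnf1 on chromosome 11 cannot be told apart from the mutation. Values are FPKM, counts of reads set against gene length and library size, which allow levels to be compared between genes, after each library was scaled by a single factor (scaled FPKM).

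Libraries held 15027400 to 19256378 counted reads. C1qtnf1 stood at 3.86, 2.74, 3.19 and 4.76 scaled FPKM in the WT and at 0.189, 0.576, 0.228 and 0.312 in the KO, so the libraries followed their labels. Summed proximal tubule markers ranged from 5184 to 5857 scaled FPKM in WT and from 5010 to 5557 in KO, with all 9 markers detected. Single markers of this list lay on both sides: 4 of 9 had a limma p under 0.05 before adjustment and none after it, with Slc22a8 (log2 fold change -0.49), Slc5a2 (-0.21) and Slc34a1 (-0.21) lower and Slc7a13 (0.41) higher in KO, each without overlap of the genotypes. Sums of the other cell type lists (distal tubule, collecting duct, podocyte, endothelium, stroma, immune cells, fat and adrenal) also overlapped between genotypes. Among their single markers, 2 of 7 for collecting duct, Foxi1 (-0.38) and Atp6v1g3 (-0.18), lay lower at a limma p under 0.05 before adjustment. Neither passed after it, and no tested marker of the remaining lists had such a p. All 5 stroma markers lay below 0. The collecting duct sum was 587 in KO replicate 3 and 229 to 332 in the remaining libraries, with the water channel gene Aqp2 at 447 against 108 to 190. Fat markers summed to at most 5.03 and adrenal markers to at most 1.44. Fewer cells of a type and less RNA per cell cannot be told apart in such whole-organ libraries.

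Most mitochondrial ribosomal protein genes were expressed at a moderate to high level. Their median was 25.5 scaled FPKM, against 6.93 over all tested genes, and 70 of 76 lay above that all-gene median and 47 above its upper quartile. The interquartile range lay between 12.8 and 39.9 scaled FPKM, and the highest stood 32.04-fold above the lowest. Single members rested on 118 to 1905 reads in a library, with a median of 583.5.

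**Figure D1:**
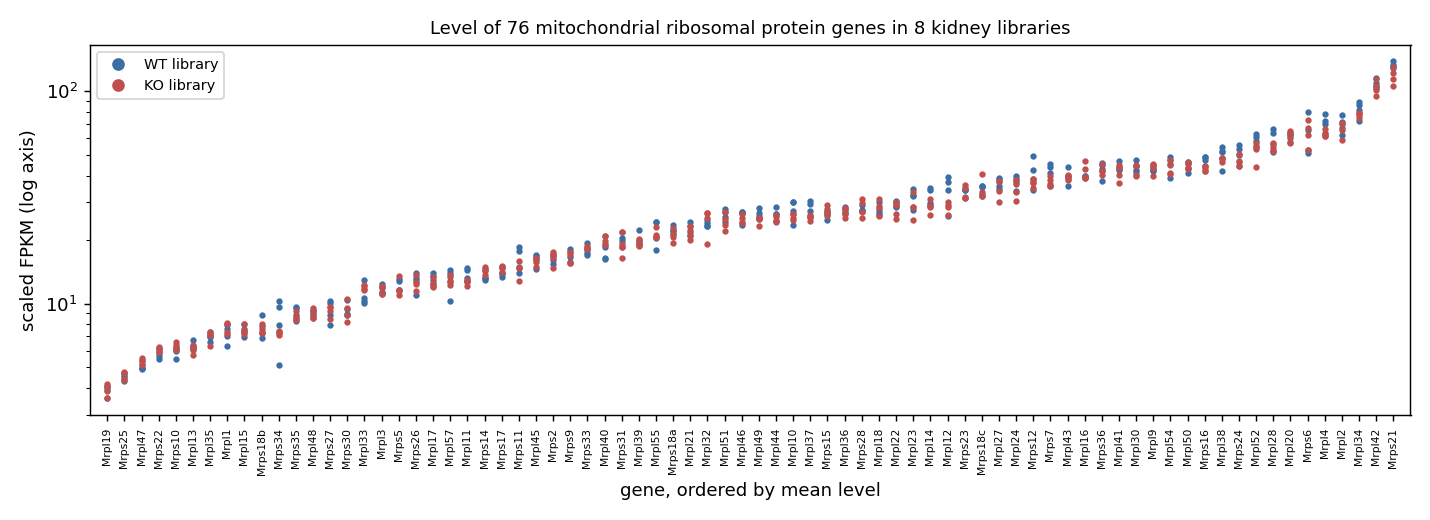
Level of each of the 76 genes (scaled FPKM, log axis) in the 4 WT (blue) and 4 KO (red) libraries, 1 point per library, ordered by mean level. The genes spread over a 32.04-fold range of means, and the blue and red points of each gene overlap.

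The gene of highest level was Mrps21, a small-subunit protein with a bacterial counterpart, at a mean of 125 scaled FPKM. Mrpl42, a large-subunit protein found only in mitochondria, followed at 106, with 116, 109, 104 and 106 in WT and 115, 95.2, 102 and 105 in KO. Mrpl34, a small bacterial-type protein of the large subunit, came next at 80.0, with 89.5, 86.1, 72.1 and 81.7 in WT and 77.5, 75.2, 78.8 and 78.9 in KO. The libraries of Mrps21 (106 to 138) and Mrpl42 (95.2 to 116) overlapped when all libraries were pooled, although Mrps21 was the higher of them in each of the 8 libraries, and Mrpl34 (72.1 to 89.5) lay below both.

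At the other end stood Mrpl19, a bacterial-type large-subunit protein, at a mean of 3.91 scaled FPKM, with 4.03, 3.93, 3.60 and 4.03 in WT and 3.58, 4.16, 3.88 and 4.09 in KO. Mrps25, a mitochondria-specific protein of the small subunit, averaged 4.55, with 4.69, 4.31, 4.52 and 4.62 in WT and 4.70, 4.74, 4.39 and 4.41 in KO. Mrpl47, which lines the mouth of the exit tunnel, averaged 5.19. Each of these 3 overlaps another tested gene in the annotation (Gcfc2, Nr2c2, and Ndufb5 with Actl6a), and since strand was not stated, their reads may be shared with it.

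Level went with annotated gene length. Across the 76 genes Spearman's rho between mean scaled FPKM and length was -0.77, against -0.03 across all 14030 tested genes, as a description of genes that share the same 8 libraries. FPKM is divided by length, and rho between the members' reads and length was 0.12. The 10 small-subunit proteins without a bacterial counterpart had a median of 9.06 scaled FPKM, and the 16 with one had 27.4. Those 10 genes also had the longer annotated models, with a median of 1866 bases against 1046.5. In the large subunit the 30 bacterial-type genes and the 19 mitochondria-specific ones had medians of 27.6 and 25.6.

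The comparison of KO with WT asked whether loss of CTRP1 changes expression in the aged kidney. None of the 76 genes passed an adjusted p under 0.05 (limma with Benjamini-Hochberg adjustment over all tested genes), where 0.0499% of all genes did. The smallest adjusted p was 0.237, for Mrps16. At an unadjusted p under 0.05 there were 3 of the 76, 3.95% of them, against 15.4% of all tested genes, and limma's voom on the recovered reads also gave 0 called and 3 at that unadjusted level. All 3 lay lower in KO, a direction that 8.25% of all genes took at this level. No gene of the 76 had its KO libraries entirely below or entirely above its WT libraries, against 4.28% and 4.34% of all genes.

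Differences were small. Fitted log2 fold changes, on the log2(scaled FPKM + 0.5) scale, ranged from -0.25 for Mrpl12 to 0.13 for Mrpl40. They were below 0 for 53 genes and above 0 for 23, with a median of -0.04, against a median of -0.0012 and 50.4% below 0 over all tested genes. A change beyond 0.25 in either direction was fitted for 1 member, 1.32% of them, and for 11.7% of all genes. The 95% confidence interval lay within 0.5 of 0 on the log2 scale for 74 of 76 members and for 82.4% of all genes. The exceptions were Mrpl12 and Mrps34. The median log2 SD within a genotype was 0.0933 for the members and 0.123 for all genes, and 59 members lay below the latter.

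**Figure D2:**
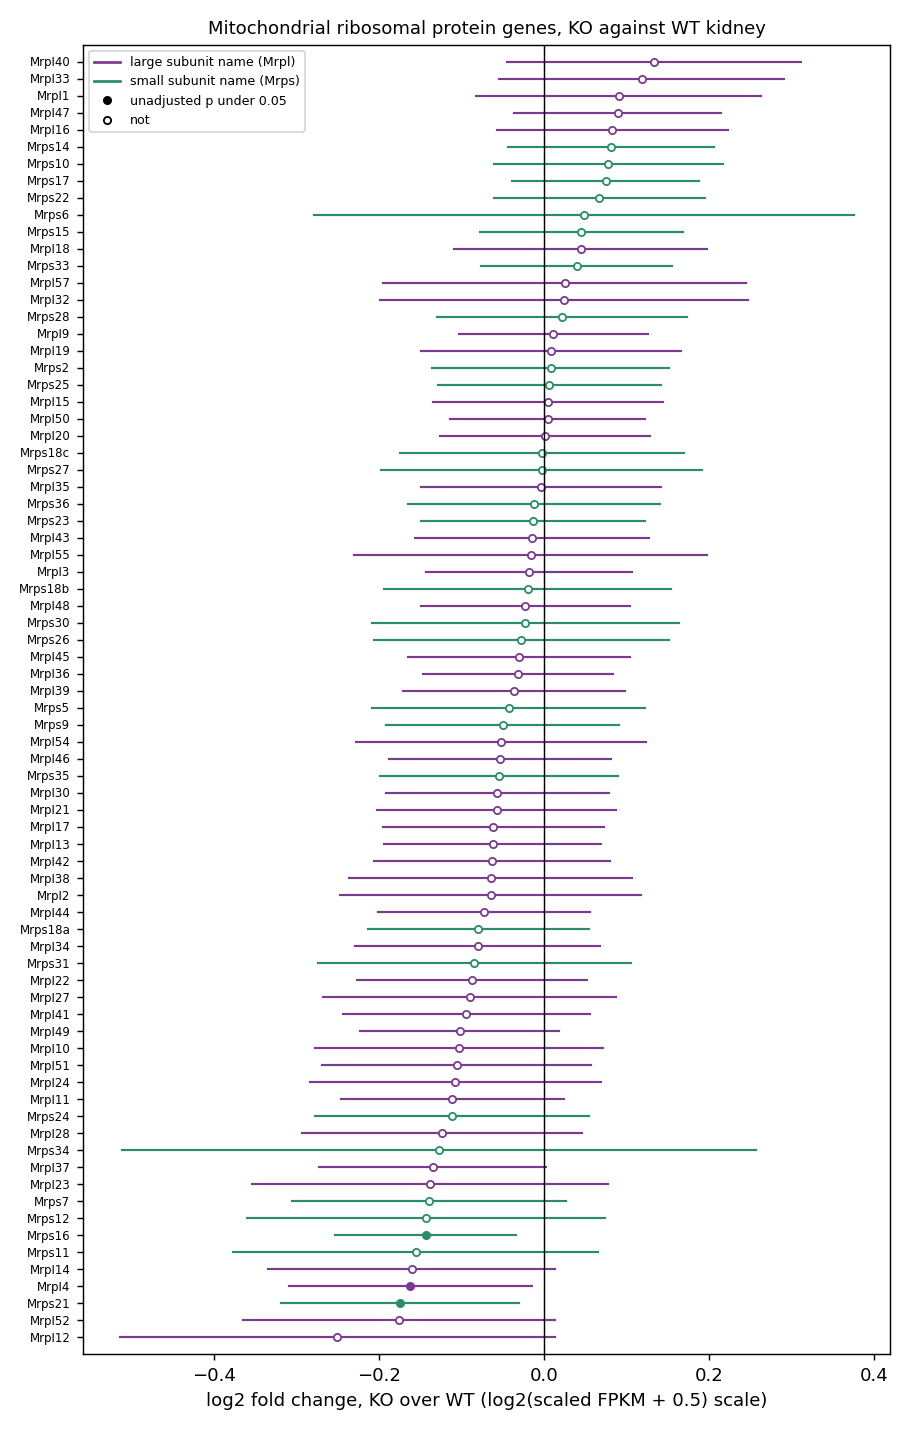
Fitted log2 fold change of KO over WT (x axis, log2(scaled FPKM + 0.5) scale) with its 95% confidence interval for each of the 76 genes, ordered by size; large-subunit names are purple, small-subunit names green. The 3 filled points, Mrps16, Mrps21 and Mrpl4, have an unadjusted p under 0.05, and the other 73 intervals include 0.

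Among the genes that lay lower, Mrps16 encodes a bacterial-type protein of the small subunit, and its inherited loss is a known cause of respiratory chain deficiency. Mrps16 (chr14:20391231-20393555, mm10, minus strand) stood at 47.4, 49.2, 44.5 and 49.1 scaled FPKM in WT and at 43.3, 44.6, 42.2 and 41.9 in KO, 47.6 ± 2.18 against 43.0 ± 1.24 (SD, n = 4). WT replicate 3 and KO replicate 2 met at the border and all other libraries kept apart. The log2 fold change was -0.14 with SE 0.05, and the limma p was 0.0158 before and 0.237 after adjustment.

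Mrps21 (chr3:95862634-95871519, minus strand) stood at 138, 132, 133 and 128 scaled FPKM in WT and at 130, 106, 114 and 122 in KO, a log2 fold change of -0.17 (SE 0.06, limma p 0.0228, adjusted p 0.260). KO replicate 1 fell within the WT range and the other KO libraries lay below it. Mrpl4 (chr9:21002737-21008835, plus strand), a bacterial-type protein of the large subunit that reaches into the exit tunnel, stood at 78.3, 72.4, 63.2 and 70.5 in WT and at 61.8, 66.7, 61.5 and 63.5 in KO. WT replicate 3 was the WT library within the KO range. Its log2 fold change was -0.16 (SE 0.07, limma p 0.0347, adjusted p 0.289).

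The other 5 of the 8 genes of smallest p on this side had an unadjusted p of 0.0534 to 0.0889. Mrpl37, a mitochondria-specific large-subunit protein, stood at 30.5, 29.4, 25.5 and 27.2 scaled FPKM in WT and at 25.6, 25.9, 24.6 and 26.1 in KO. Mrpl52, another mitochondria-specific one, stood at 63.0, 58.0, 54.7 and 60.8 in WT and at 43.9, 55.3, 57.4 and 53.3 in KO. In both, WT replicate 3 was the lowest WT library and lay within the KO range, and for Mrpl52 KO replicate 1 lay below all other libraries.

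Mrpl14, a bacterial-type protein at the face where the subunits meet, stood at 34.2, 35.2, 29.9 and 29.1 scaled FPKM in WT and at 26.0, 31.2, 28.7 and 28.6 in KO. Mrpl49, a mitochondria-specific large-subunit protein, stood at 26.8, 25.1, 25.9 and 28.2 in WT and at 23.1, 25.2, 25.3 and 25.03 in KO. The genotypes overlapped in both. Mrpl14 overlaps Tmem63b and Mrpl49 overlaps Syvn1 in the annotation.

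Of the genes that lay higher in KO, none had an unadjusted p under 0.05. Mrpl40, part of the central protuberance, the crown of the large subunit, came first with a log2 fold change of 0.13 (SE 0.08, limma p 0.126, adjusted p 0.441). It stood at 18.4, 20.7, 16.3 and 16.3 scaled FPKM in WT and at 19.2, 19.8, 18.8 and 20.7 in KO, and WT replicate 2 was as high as the highest KO library. Mrpl47 stood at 4.95, 4.92, 4.97 and 5.21 in WT and at 5.44, 5.12, 5.53 and 5.38 in KO. Only KO replicate 2 and WT replicate 4 crossed.

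Mrpl33, a small bacterial-type protein of the large subunit, stood at 10.2, 10.0, 12.8 and 10.7 scaled FPKM in WT and at 12.2, 11.5, 11.7 and 12.0 in KO, with WT replicate 3 above every other library. Its gene model overlaps Babam2 and Rbks. Mrps17, a small-subunit protein that binds ribosomal RNA early in assembly in bacteria, stood at 13.8, 13.3, 14.7 and 14.0 in WT and at 14.9, 14.0, 14.9 and 15.02 in KO. Mrps14, a bacterial-type protein of the small subunit, stood at 14.6, 13.0, 13.2 and 13.2 in WT and at 14.9, 14.4, 14.2 and 13.6 in KO. In these 3 genes a single WT library reached into the KO range or above it.

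Mrpl16 of the large subunit stood at 39.9, 39.4, 39.0 and 39.8 scaled FPKM in WT and at 47.0, 42.8, 39.0 and 39.3 in KO, so that KO replicates 1 and 2 alone lay above the WT. Mrps10 of the small subunit stood at 5.46, 6.26, 5.98 and 6.11 in WT and at 6.61, 6.04, 6.20 and 6.38 in KO. Mrps22, a mitochondria-specific small-subunit protein and a known disease gene, stood at 6.09, 5.47, 5.67 and 5.85 in WT and at 6.25, 5.96, 5.91 and 6.15 in KO. Log2 fold changes of the 8 named genes on this side ran from 0.07 to 0.13.

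**Figure D3:**
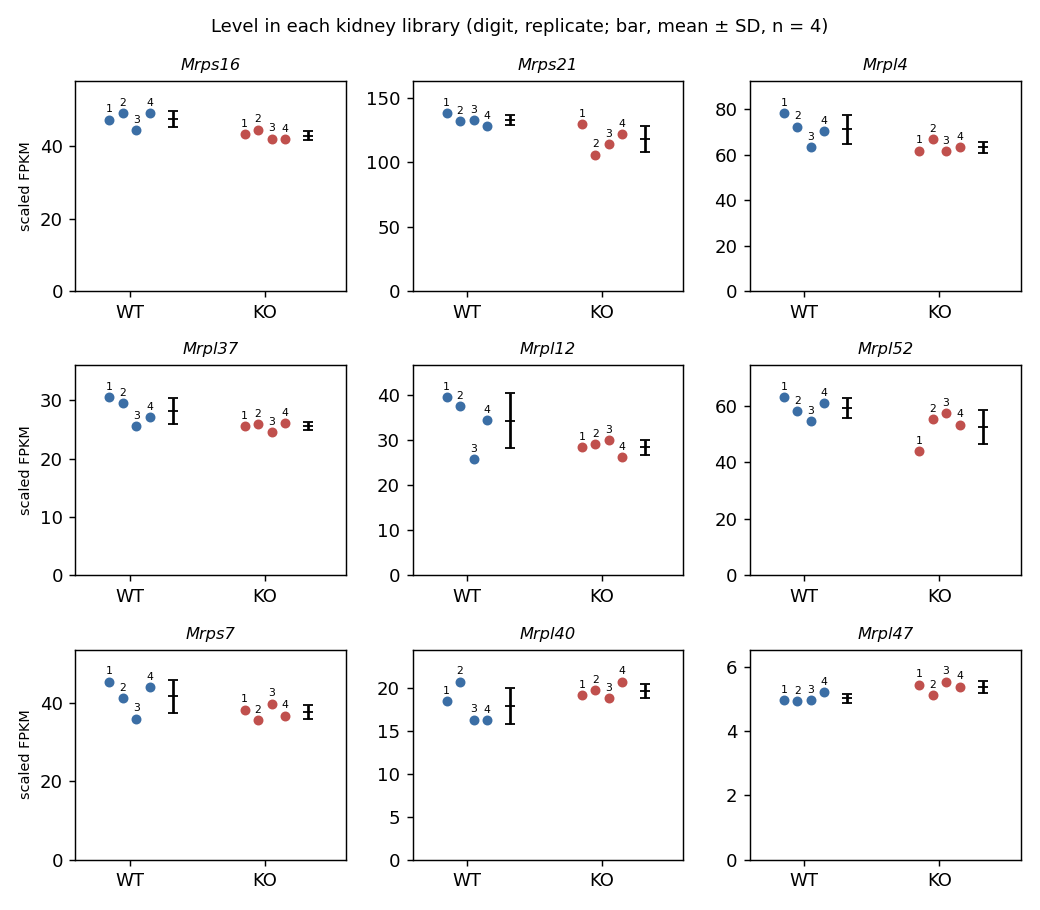
Scaled FPKM of 9 named genes in each kidney library, WT in blue and KO in red, with the replicate number above each point and the mean ± SD (n = 4) in black. WT replicate 3 is the lowest WT library in Mrps16, Mrpl4, Mrpl37, Mrpl12, Mrpl52 and Mrps7.

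Grouped by place in the ribosome, no group stood out by its count. Of the Mrpl genes 1 of 47 had an unadjusted p under 0.05 and the median log2 fold change was -0.06, and of the Mrps genes 2 of 29 did and the median was -0.02. The 3 genes of the stalk, where translation factors dock, all lay below 0 (Mrpl10 -0.10, Mrpl11 -0.11, Mrpl12 -0.25), none with an unadjusted p under 0.05. The 6 genes around the tunnel exit had a median of -0.07, the 7 measured genes of the central protuberance -0.02, and none of either had such a p. Medians were -0.06 and -0.05 for the bacterial-type and mitochondria-specific genes of the large subunit and -0.02 for each class of the small subunit. Among 15 genes whose human counterparts are linked to inherited deficiency, 1 (Mrps16) had an unadjusted p under 0.05 and the median was -0.02. Mrps36, which is not a ribosomal subunit, stood at 44.8, 43.0, 37.8 and 45.9 scaled FPKM in WT and at 45.6, 41.9, 42.04 and 40.4 in KO, and its log2 fold change was -0.01 (limma p 0.867).

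Mrpl12 is a stalk protein that also binds the mitochondrial RNA polymerase, and its gene lies 2.06 Mb from C1qtnf1 (chr11:120484613-120489065, plus strand). It stood at 39.5, 37.5, 25.8 and 34.4 scaled FPKM in WT and at 28.5, 29.1, 29.99 and 26.2 in KO, 34.3 ± 6.07 against 28.4 ± 1.62 (SD, n = 4). WT replicate 3 was the lowest of all 8 libraries, whereas the other WT libraries lay above every KO library. The log2 fold change was -0.25 (95% confidence interval -0.51 to 0.01, limma p 0.0607, adjusted p 0.344), and without WT replicate 3 it was -0.38 with an adjusted p of 0.0681. The gene overlaps the transcript Gm16755.

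Besides Mrpl12, Mrpl38 and Mrps7 lie within 10 Mb of C1qtnf1. Mrps7, a bacterial-type protein of the small subunit and a disease gene, 2.82 Mb away, stood at 45.3, 41.1, 35.9 and 43.9 scaled FPKM in WT and at 38.2, 35.6, 39.8 and 36.7 in KO (log2 fold change -0.14, limma p 0.0903, adjusted p 0.389). Mrpl38, of the central protuberance, 2.30 Mb away, stood at 54.7, 52.1, 42.1 and 51.8 in WT and at 48.0, 48.5, 48.3 and 46.2 in KO (log2 fold change -0.06, limma p 0.420, adjusted p 0.711). In both, as in Mrpl12, WT replicate 3 broke the order. Mrps7 overlaps Gga3 and Mif4gd. Of all 199 tested genes in that window 24.1% had an unadjusted p under 0.05, 39 lower and 9 higher in KO, against 15.4% of all tested genes. The median log2 fold change in the window was -0.07, against -0.0012 over all tested genes. In the window 3 genes passed the adjusted threshold (limma) higher in KO and 2 lower, where over all tested genes 4 and 3 did. None of these was a member. The part of linked 129-strain DNA in these values cannot be told apart from the part of the mutation.

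The members varied together between libraries to a modest degree. The median log2 deviation of the 76 genes from their own means was 0.07, 0.05, -0.07 and 0.03 in the WT libraries and 0.05, -0.06, -0.05 and -0.01 in the KO libraries. High and low libraries thus occurred in both genotypes: 54, 54, 19 and 46 members lay above their own mean in the WT libraries and 49, 16, 22 and 37 in the KO libraries. Genes with large-subunit names and genes with small-subunit names had medians of the same sign in every library except KO replicate 4. As a share of all counted reads the members took 0.286% (WT replicate 3) to 0.311% (WT replicate 1). The mean correlation between 2 members of their deviations within genotypes was 0.19 over the 8 libraries, against 0.0016 over all tested genes, as a description. It was as high or higher in nuclear complex I genes (0.38), genes of mitochondrial DNA (0.36) and cytosolic ribosomal protein genes (0.22), and 0.18 in mitochondrial translation factors. With each library's trends on GC content and gene length removed, the mean correlation was 0.25 in the members and 0.0068 over all tested genes. In these lists it was then 0.44, 0.28, 0.17 and 0.16 in the same order, so cytosolic ribosomal protein genes lay below the members.

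The same libraries were high and low for nuclear genes of complex I, the first respiratory chain enzyme, taken by their Nduf symbols. Their median deviations were 0.07, 0.07, -0.05 and 0.02 in WT and 0.02, -0.08, -0.07 and -0.01 in KO. Cytosolic ribosomal protein genes did not share the low value of WT replicate 3: their medians were 0.06, 0.04, 0.07 and 0.02 in WT and -0.04, -0.13, -0.01 and 0.01 in KO. The 13 protein genes of mitochondrial DNA stood at -0.15, -0.14, 0.03 and -0.06 in WT and at 0.08, -0.15, 0.08 and 0.14 in KO.

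**Figure D4:**
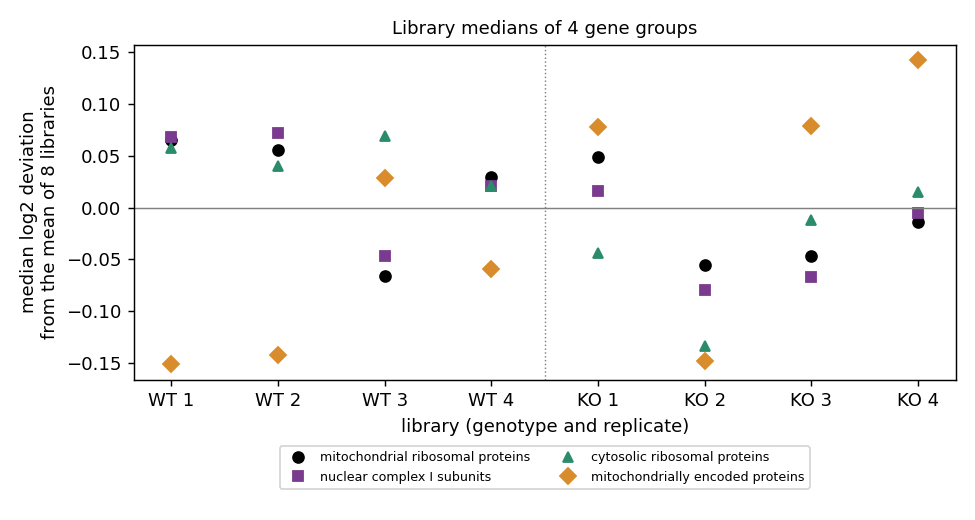
Median log2 deviation from the mean of 8 libraries (y axis) for 4 gene groups in each WT and KO library (x axis). Mitochondrial ribosomal protein genes (black circles) and complex I genes (purple squares) are both below 0 in WT replicate 3 and in KO replicates 2, 3 and 4, and both above 0 in the remaining libraries.

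WT replicate 3 had the lowest WT value for 44 of the 76 genes and the lowest of all 8 libraries for 20. It was not alone in this: KO replicate 2 had the lowest KO value for 32 and the lowest of all 8 for 19. Without WT replicate 3, 17 members had an unadjusted p under 0.05, 16 lower and 1 (Mrpl33) higher in KO. That was 22.4% of the members, against 21.7% of all tested genes in the same fit. The median log2 fold change of the members became -0.07, and none passed the adjusted threshold, with Mrpl12 the nearest. Without it 13 members lay entirely lower and 2 entirely higher in KO, against 11.6% and 9.41% of all tested genes, which likewise have fewer libraries to keep apart. Mrps34, a mitochondria-specific small-subunit protein, showed the library most: it stood at 10.3, 9.66, 5.15 and 7.92 scaled FPKM in WT and at 7.28, 7.32, 7.08 and 7.41 in KO, and its log2 fold change moved from -0.13 to -0.32. It overlaps Mapk8ip3.

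Several measures differed in that library. Havcr1, a marker of injured proximal tubule, was at 4.75 scaled FPKM in WT replicate 3 and at 0.484 to 1.89 in the others, and the fat markers had their highest sum there. Spearman's rho across tested genes between a library's deviation and GC content was -0.24 in WT replicate 3 and 0.29 to 0.46 in the other WT libraries, and -0.39 to -0.07 in the KO libraries. With each library's trends on GC content and gene length removed, 7 of the 75 members with a GC value had an unadjusted p under 0.05 (Mrps16, Mrpl30, Mrps21, Mrpl13, Mrpl52 and Mrpl42 lower, Mrpl40 higher), 9.33% of them against 11.4% of all genes in that fit. The smallest adjusted p was 0.308 and the median was -0.06. WT replicate 3 kept its low member median of -0.07 after that removal. Log2 fold change and GC content had a rho of -0.49 across those 75 genes and of -0.44 across 13955 genes, as a description. The part of injury, fat or collecting duct in the member values was not tested.

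**Figure D5:**
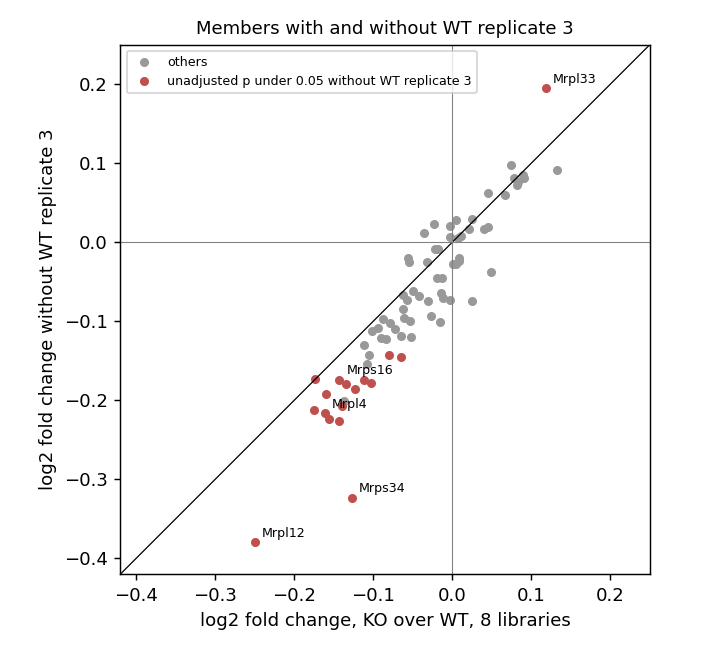
Log2 fold change of KO over WT for each of the 76 genes with all 8 libraries (x axis) and without WT replicate 3 (y axis), with the line of equal values. Red points have an unadjusted p under 0.05 without that library (17 genes); Mrpl12 moves from -0.25 to -0.38 and Mrps34 from -0.13 to -0.32.

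Promoters were searched for letters of known factors. As background, NRF1, the ETS-family factor GABP and YY1 are regulators of nuclear genes for mitochondrial proteins. RefSeq windows (GRCm38.p6, 250 bases before to 50 after the start) were matched for 67 of the 76 genes. The NRF1 motif, the ETS motif CCGGAAGT, the YY1 motif ATGGCGGC and the E-box CACGTG, to which MYC binds, were searched on both strands. The NRF1 motif has 1 free base near its middle and is a palindrome only where that base is A. None of the matches in the members overlapped a match of another motif.

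The NRF1 motif was found in 13 of 67 members (19.4%), against 11.1% of tested protein-coding genes and 5.19% of all genes with a window. The ETS motif was found in 12 (17.9%, against 8.84% and 4.31%) and the YY1 motif in 11 (16.4%, against 5.48% and 2.60%). At least 1 of these 3 occurred in 32 members (47.8%), against 23.1% of tested protein-coding genes and 11.1% of all. The E-box occurred in 5 members (7.46%), against 11.7% and 8.09%. Of the 11 YY1 motifs 10 lay after the start, where the same letters begin with the triplet of a start codon.

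Matches of the NRF1 motif (in capitals) are shown for Mrpl12 and Mrps21, which hold it before the start. Both are among the 8 members of smallest p on the lower side. The other 3 members shown have a palindromic match (GCGCATGCGC). Each line gives 30 bases 5′ to 3′ in the direction of the gene:
Mrpl12 (chr11:120484546-120484575, plus strand): tattgtctccGCGCCTGCGCgtcgcaccgc
Mrps21 (chr3:95871586-95871615, minus strand): ggaaagtccaGCGCCTGCGCtcagcaccga
Mrpl9 (chr3:94443298-94443327, plus strand): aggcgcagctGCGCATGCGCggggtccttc
Mrpl32 (chr13:14613105-14613134, minus strand): tttgacccttGCGCATGCGCaagaggggcc
Mrpl39 (chr16:84735350-84735379, minus strand): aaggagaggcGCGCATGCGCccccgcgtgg
In Mrpl12 the match began 81 bases before the start, in Mrps21 91, in Mrpl9 28, in Mrpl32 87 and in Mrpl39 125. Log2 fold changes were -0.25 for Mrpl12, -0.17 for Mrps21, 0.01 for Mrpl9, 0.02 for Mrpl32 and -0.04 for Mrpl39, and over all 13 members with this motif 10 were below 0, as were 53 of all 76. These 5 were chosen after their values were seen.

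Matches of the ETS motif (in capitals) are shown for members on both sides of 0 and of the YY1 motif (in capitals) for the match before the start and for Mrpl37, where it lies after the start:
Mrpl52, ETS (chr14:54426900-54426929, plus strand): ggccacgcccACTTCCGGttcccttgctcc
Mrps22, ETS (chr9:98601680-98601709, minus strand): tgcacaaaaacctctcgagCCGGAAGTtgc
Mrpl33, ETS (chr5:31613938-31613967, plus strand): cgcgcatgccCCGGAAGTagtcgttgagct
Mrps11, YY1 (chr7:78783011-78783040, plus strand): ccctacgggcGCCGCCATctttctgtcttc
Mrpl37, YY1 (chr4:107066818-107066847, minus strand): acgggcaaagATGGCGGCgtccaggtagag
In Mrpl52 and Mrps11 the letters stand on the opposite strand. Log2 fold changes were -0.18 for Mrpl52, 0.07 for Mrps22, 0.12 for Mrpl33, -0.16 for Mrps11 and -0.13 for Mrpl37, none with an unadjusted p under 0.05.

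By motif, median log2 fold changes were -0.05 for the 13 genes with the NRF1 motif, -0.02 for the 12 with the ETS motif and -0.04 for the 11 with the YY1 motif. The median was -0.03 both for the 32 members with any of the 3 and for the 35 members whose windows held none of them. A match of letters is a description and no binding was measured.

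Many members share a promoter region with another gene. A protein-coding neighbour read in the opposite direction started within 1000 bases for 33 members, 44.0% of the 75 found in the annotation, against 15.6% of 12636 tested protein-coding genes. Some of these pairs joined genes of mitochondrial function: Mrps11 with Mrpl46, Mrpl43 with Twnk, the mitochondrial DNA helicase, Mrps12 with Sars2, a mitochondrial tRNA synthetase, and Mrpl47 with Ndufb5 and Mrpl36 with Ndufs6, both of complex I. Mrps11, of the small subunit, stood at 18.5, 17.7, 14.0 and 14.9 scaled FPKM in WT and at 15.8, 12.7, 14.7 and 14.8 in KO. Its partner Mrpl46, of the large subunit, stood at 26.9, 26.8, 23.4 and 26.6 in WT and at 25.2, 23.9, 26.5 and 24.3 in KO. WT replicates 1 and 2 were the highest WT libraries in both, although WT replicate 4 of Mrpl46 came close to them. The highest KO library was replicate 1 for Mrps11 and replicate 3 for Mrpl46. These gene models overlap each other, so reads may be shared between them. Over all, 21 members overlap another tested gene, so their reads are uncertain where strand was not kept.

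The wider machinery was read from lists of known genes, in the same fit, and of their 239 tested genes none passed the adjusted threshold (limma). Counts of list genes at an unadjusted p under 0.05 stand beside 15.4% of all tested genes. That share was 21.7% without WT replicate 3 and 11.4% with GC and length trends removed. Of 6 mitochondrial ribosomal proteins with other names, none had an unadjusted p under 0.05, with a median log2 fold change of -0.03, and without WT replicate 3 there was 1. Gadd45gip1 came nearest, at 3.24, 3.19, 2.36 and 2.89 scaled FPKM in WT and at 2.33, 2.46, 2.48 and 2.48 in KO (-0.21, limma p 0.0514, adjusted p 0.326), again with WT replicate 3 at the level of the KO. Dap3, a GTP-binding protein of the small subunit, stood at -0.08 (limma p 0.123, adjusted p 0.437).

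Of 24 assembly factors 2 had an unadjusted p under 0.05, both lower in KO, and the median was -0.02. Mpv17l2, an inner membrane protein that takes part in assembling the ribosome, stood at 41.1, 38.8, 36.9 and 41.3 scaled FPKM in WT and at 31.7, 30.7, 29.5 and 35.3 in KO. Its genotypes did not overlap, and WT replicate 3 kept to the WT side (log2 fold change -0.31, SE 0.07, limma p 0.00079, adjusted p 0.139). Mettl17, an assembly factor of the small subunit, stood at 5.45, 6.24, 5.64 and 5.33 in WT and at 4.95, 4.86, 4.04 and 4.96 in KO, also without overlap (-0.25, SE 0.08, limma p 0.0126, adjusted p 0.224). Without WT replicate 3 the count of assembly factors at that p was 5, 4 of them lower.

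Among 16 translation factors, Oxa1l, which inserts new proteins into the inner membrane, lay lower in KO (-0.17, limma p 0.0200, adjusted p 0.251) and Mtif2, the initiation factor, lay higher (0.15, limma p 0.0308, adjusted p 0.280), both without overlap of the genotypes. The median of the 16 was 0.01, and the count of 2 became 0 without WT replicate 1 or KO replicate 2 and 1 without WT replicate 2 or KO replicate 4. Among 19 genes for charging mitochondrial tRNAs, Qrsl1 (0.17) and Rars2 (0.16) lay higher at unadjusted p of 0.0320 and 0.0345, and the median was 0.04. That count became 0 without KO replicate 1 or KO replicate 4 and 1 without WT replicate 1, 2 or 4 or KO replicate 3. Among 14 genes for transcription and upkeep of mitochondrial DNA, Tefm, the elongation factor of its transcription, had an unadjusted p of 0.0191 (0.21, adjusted p 0.249), and Lonp1, a matrix protease, stood at -0.09 (limma p 0.0656). Polrmt, the mitochondrial RNA polymerase, stood at -0.18 (limma p 0.0734) and Tfam, which packs and transcribes mitochondrial DNA, at 0.02 (limma p 0.800). The count of 1 became 0 without WT replicate 1 or KO replicate 4 and 3 without WT replicate 3 or KO replicate 2.

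Of 10 regulators of mitochondrial biogenesis, 4 had an unadjusted p under 0.05, 2 in each direction, and 2 did without KO replicate 1. Myc stood at 3.49, 3.83, 4.24 and 2.84 scaled FPKM in WT and at 1.999, 2.61, 2.39 and 2.39 in KO (-0.52, SE 0.12, limma p 0.00135, adjusted p 0.151). Gabpa, the DNA-binding part of GABP, stood at 8.03, 8.60, 9.31 and 8.17 in WT and at 10.0, 9.49, 10.1 and 10.0 in KO (0.21, SE 0.06, limma p 0.00655, adjusted p 0.191). Genotypes did not overlap in either gene. Nrf1 stood at -0.03 (limma p 0.641) and the coactivator Ppargc1a at 0.01 (limma p 0.894).

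The products of mitochondrial translation are encoded by 13 genes of mitochondrial DNA. Of these, 5 had an unadjusted p under 0.05 (limma), all higher in KO, against 15.4% of all tested genes in either direction. The median log2 fold change of the 13 was 0.13. Reads of all mitochondrial genes took 7.38 to 8.64% of counted reads in WT and 7.33 to 8.83% in KO, so the genotypes overlapped. The genes named below lay far under the median level of the 13, which was 4163 scaled FPKM. The gene mt-Atp6, of ATP synthase, stood at 99.8, 99.7, 125 and 116 scaled FPKM in WT and at 140, 166, 171 and 192 in KO (0.60, SE 0.11, limma p 0.000213, adjusted p 0.108). The complex I gene mt-Nd3 stood at 28.3, 31.0, 43.5 and 37.2 in WT and at 48.1, 59.9, 61.3 and 73.4 in KO (0.79, SE 0.15, limma p 0.000396, adjusted p 0.113). The genotypes kept apart in both. Mitochondrial genes overlap and lie next to each other on both strands, so reads may be shared between them. Another complex I gene, mt-Nd4l, stood at 43.4, 39.9, 38.97 and 40.6 in WT and at 42.3, 57.6, 60.1 and 63.2 in KO (0.43, limma p 0.00312, adjusted p 0.170), with KO replicate 1 among the WT libraries. Without that library mt-Nd4l, chosen here after its values were seen, passed the threshold (0.56, adjusted p 0.0167).

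Beside these, 7 of 37 genes with Nduf symbols, called complex I genes here, had an unadjusted p under 0.05. Of the 7, 6 lay lower in KO, and the median of the 37 was -0.06. That selection also takes Ndufa4 and Ndufa4l2, which are not complex I subunits. The count was 16, all lower, without WT replicate 3, and 4 without WT replicate 2, without KO replicate 2 or with GC and length trends removed. Ndufs7, a core subunit of the enzyme, stood at 182, 201, 149 and 174 scaled FPKM in WT and at 139, 139, 148 and 143 in KO (-0.31, limma p 0.00382, adjusted p 0.173), and Ndufb6, an accessory subunit, at 87.1, 82.6, 67.1 and 73.6 and at 68.7, 64.2, 60.1 and 61.1 (-0.28, limma p 0.00703, adjusted p 0.193). In both, WT replicate 3 was again the lowest WT library. Of 100 tested genes with Rpl or Rps symbols, 35 had such a p and lay lower, against 8.25% of all tested genes. Another 4 had such a p and lay higher, and the median was -0.08. Without WT replicate 2 these counts were 23 and 2. Rpl10a stood at 105, 111, 106 and 109 in WT and at 95.2, 88.6, 90.8 and 94.0 in KO (-0.23, limma p 0.000488, adjusted p 0.116), and Rps16 at 373, 382, 341 and 352 and at 299, 303, 315 and 309 (-0.24, limma p 0.000929, adjusted p 0.139). That selection also takes 10 genes of ribosomal S6 kinases, and without these it was 34 lower and 2 higher of 90. All these lists and the 76 genes were compared in the same libraries, and the difference between lists was not tested.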

How the data were processed

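Gene expression was measured by mRNA sequencing of 8 mouse kidneys, 4 WT and 4 KO, grouped by the labels' genotype. The authors deposited FPKM for 23386 genes on build mm10, per the file headers. CASAVA, STAR 2.5, HTSeq 0.6.1 and DESeq2 (version as listed, 2) are named without roles in the submitters' processing notes, and neither strandedness nor the annotation release was stated there. FPKM was multiplied by gene length and divided by the smallest positive product of the library, which was taken as a single read. This gave whole reads for 100% of values within a tolerance of 0.01. Each library was divided by a median-ratio factor (0.975 to 1.03). Log2(scaled FPKM + 0.5) of the 14030 genes with a mean of at least 0.5 was fitted with limma 3.58.1 (R 4.3.3, eBayes with trend), two-sided, with Benjamini-Hochberg adjustment over all of them and a call at adjusted p under 0.05. This scale understates changes of low genes. The precision is limited by 4 animals per genotype. The fit was tested on simulated data.

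Members, lists and tests were chosen with earlier results of these data known. Genes named were the 8 members of smallest p in each direction, the 3 of highest and of lowest level, those within 10 Mb of C1qtnf1, Mrpl12 and Mrps36, and the 2 genes of smallest p of each further list, with Tfam, Polrmt, Ppargc1a, Nrf1 and Gabpa. Mrps34, Mrps11 and Mrpl46, the genes counted without a library or without GC trends, and the printed sequences were chosen after their values were seen. Lists on other cell types held kidney, fat and adrenal markers. Mrpl53, Mrpl58 under that symbol, Gatb, Adgre1, Cyp11b1 and the mitochondrial ribosomal RNAs were not analysed here. GC content came from GENCODE vM21 transcripts of the same build, and neighbours and overlaps from its gene models. Promoter windows are RefSeq's, on GRCm38.p6. Alternatives were other pseudocounts, filters, scalings, limma settings, voom on recovered reads, removal of GC and length trends (natural splines), another threshold, and leaving out each library or the members near C1qtnf1.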

Additional observations from a re-analysis of the deposited data

Results flagged for a closer look

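For the genes named in the text and the members' library median, 114 groups of 4 libraries were checked for a library whose gap to its nearest neighbour was above Dixon's 95% critical share of the group's range, and 10 held one; chance gives about 1 in 20 groups. KO replicate 1 had 23.1 scaled FPKM of Mrpl49, with 25.03 to 25.3 across the remaining KO libraries. WT replicate 4 had 5.21 of Mrpl47, with 4.92 to 4.97 across the remaining WT libraries. KO replicate 2 had 14.0 of Mrps17, with 14.9 to 15.02 across the remaining KO libraries. WT replicate 1 had 14.6 of Mrps14, with 13.0 to 13.2 across the remaining WT libraries. WT replicate 3 had 23.4 of Mrpl46, with 26.6 to 26.9 across the remaining WT libraries.

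The others were genes of the wider machinery. KO replicate 1 had 2.33 of Gadd45gip1, with 2.46 to 2.48 in the remaining KO libraries, and KO replicate 3 had 4.04 of Mettl17, with 4.86 to 4.96. Mtif2 stood apart in both genotypes, at 12.2 in WT replicate 1 (13.7 to 14.0 in the remaining WT libraries) and at 14.3 in KO replicate 3 (15.1 to 15.2 in the remaining KO libraries). KO replicate 2 had 9.49 of Gabpa, with 10.0 to 10.1 in the remaining KO libraries.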

How the results depend on the processing

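No member was called under any of the 21 alternatives; the smallest adjusted p of a member (limma, Benjamini-Hochberg) ran from 0.0681 without WT replicate 3 to 0.394 without WT replicate 2. Members at an unadjusted p under 0.05 numbered 3, and 7 with GC and length trends removed, 10 at a threshold of 0.10, and 2 to 17 on leaving out each library, with 17 without WT replicate 3. Of all tested genes, 15.4% had such a p in the main fit, 11.4% with GC and length trends removed and 21.7% without WT replicate 3. For the other alternatives no such share is given. All genes called numbered 7, and 5 to 16 on leaving out each library, again highest without WT replicate 3. The members' median log2 fold change kept its sign throughout, from -0.07 (without WT replicate 3) to -0.02 (without KO replicate 2). Members whose genotypes did not overlap numbered 0, but 2 with the deposited FPKM, 1 with upper-quartile scaling, 1 with GC and length trends removed, and 0 to 15 on leaving out each library, with 15 without WT replicate 3 (chosen after seeing the data). Without that library 11.6% of all tested genes lay entirely lower and 9.41% entirely higher in KO. With all libraries these shares were 4.28% and 4.34%. For the remaining alternatives the share of all genes is not given. Genes called in the lists of the wider machinery numbered 0, but 1 (mt-Nd4l) without KO replicate 1, a range of 0 to 1 on leaving out each library. The cause of these moves was not tested.

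Of 436 alternatives of the 23 named members' log2 fold changes, 420 kept direction and side of the threshold and 16 changed sign, in genes near 0: Mrps14 (-0.00037) and Mrpl38 (0.035) with GC and length trends removed; Mrps36 with quantile normalization (0.012) and on leaving out each library (-0.070 to 0.022; above 0 without WT replicate 1, WT replicate 4 or KO replicate 4); Mrpl19 with quantile normalization (-0.0059), with GC and length trends removed (-0.040) and on leaving out each library (-0.024 to 0.048; below 0 without WT replicate 3, KO replicate 2 or KO replicate 4); and Mrps25 with quantile normalization (-0.0011), with GC and length trends removed (-0.073) and on leaving out each library (-0.015 to 0.023; below 0 without WT replicate 2, KO replicate 1 or KO replicate 2). Of the alternatives of 33 further genes named in the text, chosen after seeing the data like those of the lists, 14 changed sign: Tfam (-0.049), Mrpl32 (-0.074), Mrpl9 (-0.0099) and Ppargc1a (-0.099) with GC and length trends removed, and on leaving out each library Tfam (-0.029 to 0.050), Mrpl32 (-0.022 to 0.14), Mrpl9 (-0.0082 to 0.051), Ppargc1a (-0.023 to 0.063) and Mrpl39 (-0.062 to 0.012). Mrpl33 had no GC value and so no value with that trend removed. No paired analysis was possible because the labels give the genotypes no shared replicate number; replicates were numbered in accession order.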
